A study of Mus musculus with 9 samples.

Results

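The BCL2 family decides, at the outer membrane of mitochondria, whether a stressed cell lives or dies by apoptosis. The genes described here are 10 members named by symbol: the survival genes Bcl2, Bcl2l1 and Mcl1, the pore-forming genes Bax and Bak1, and the BH3-only genes Bid, Bad, Bcl2l11, Bbc3 and Pmaip1. Each symbol matched 1 identifier among the 56980 in the deposited table, and all 10 were among the 12904 genes tested, those with at least 1 TPM in at least 3 libraries. The 3 survival genes were set against the other 7, called death genes below.

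RNA came from the MH-S line of mouse alveolar macrophages, made by transformation with SV40 virus, whose large T antigen binds p53. The groups were cells exposed for 24 h to CuO nanoparticles (CuO NPs, 20 µg/ml) together with TTM (10 µM), cells exposed for 24 h to CuO NPs (20 µg/ml) without it, and untreated controls, with 3 libraries each. TTM is not spelled out in the labels; in copper biology it usually stands for tetrathiomolybdate, a copper chelator. No group had TTM without nanoparticles, all libraries share 1 cell line, and no label says that replicates were separate cultures, so the p-values below cover the spread among these samples and nothing wider.

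In this family the survival proteins hold the death proteins in check. BAX and BAK form the pores that release cytochrome c from mitochondria, and BH3-only proteins set them off, either by binding them directly or by occupying the groove of BCL2, BCL-XL and MCL1. BH3-only genes are often switched on by stress: Bbc3 and Pmaip1 are known targets of p53, and Bbc3 and Bcl2l11 can also be raised through CHOP, a transcription factor of the unfolded protein response. MCL1 is a short-lived protein. Levels of mRNA say nothing of how the proteins were cleaved, phosphorylated or degraded.

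Promoters are shown for 5 of the members whose mRNAs passed a test described below. They are those of Mcl1 and Bcl2l1, which were lower with CuO NPs, and of Bcl2, which was higher with TTM. The others are those of Bax, which was higher with CuO NPs, and of Bid, which was lower in both exposures. Bbc3, Bcl2l11, Bak1 and Pmaip1 also passed in some comparison and are not shown, and Bcl2l1 has further windows that are not printed. Each run is the 250 bases before a RefSeq transcription start, from build GRCm38.p6 and on the strand of the gene. The deposited values rest on another build, GRCm39, so these coordinates belong to the sequences alone. Capitals mark letters matching a searched motif, on either strand. Further matches to a looser form of the metal response element core, counted below, are left in lower case.
Mcl1, chr3:95658471-95658720, plus strand: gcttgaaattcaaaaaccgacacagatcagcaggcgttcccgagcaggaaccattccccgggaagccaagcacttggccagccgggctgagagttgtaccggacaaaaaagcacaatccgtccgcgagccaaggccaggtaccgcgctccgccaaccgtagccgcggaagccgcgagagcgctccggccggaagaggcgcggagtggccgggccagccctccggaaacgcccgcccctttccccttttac
Bcl2l1, chr2:152831729-152831978, minus strand: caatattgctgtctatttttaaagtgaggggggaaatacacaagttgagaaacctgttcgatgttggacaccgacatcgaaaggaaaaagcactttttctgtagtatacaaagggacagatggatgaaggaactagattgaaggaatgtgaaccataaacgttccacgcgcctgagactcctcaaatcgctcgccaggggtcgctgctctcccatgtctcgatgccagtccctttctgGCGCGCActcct
Bcl2, chr1:106714291-106714540, minus strand: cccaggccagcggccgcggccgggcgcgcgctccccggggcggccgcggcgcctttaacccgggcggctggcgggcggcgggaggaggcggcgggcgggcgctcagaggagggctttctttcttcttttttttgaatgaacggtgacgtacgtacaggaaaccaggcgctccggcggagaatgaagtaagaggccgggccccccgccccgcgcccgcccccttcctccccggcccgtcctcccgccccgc
Bax, chr7:45466899-45467148, minus strand: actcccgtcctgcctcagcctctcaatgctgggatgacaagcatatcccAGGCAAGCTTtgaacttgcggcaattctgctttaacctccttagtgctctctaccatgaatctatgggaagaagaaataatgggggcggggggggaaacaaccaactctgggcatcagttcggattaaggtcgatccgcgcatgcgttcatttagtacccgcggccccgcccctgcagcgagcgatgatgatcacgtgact
Bid, chr6:120916825-120917074, minus strand: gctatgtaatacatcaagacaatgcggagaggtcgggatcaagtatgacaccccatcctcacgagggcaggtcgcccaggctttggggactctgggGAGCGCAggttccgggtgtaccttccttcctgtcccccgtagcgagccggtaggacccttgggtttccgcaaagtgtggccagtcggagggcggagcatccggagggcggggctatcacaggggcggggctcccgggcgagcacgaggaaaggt

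The 10-base capital run in Bax is a match to the p53 consensus half-site, at positions -201 to -192 before the start, and the other capital runs match the metal response element core, TGCACNC or TGCGCNC. RefSeq gave 15 such windows for 9 members, and 1 of them, in Bax, held the p53 half-site, against 7.13% of 32851 windows of all genes. The metal response element core was in 7 of the 15, against 21.41% of all windows. These were windows of 5 genes (Bcl2l1, Bid, Bbc3, Bcl2l11 and Bad), and windows of 1 gene can overlap. The looser letters TGCNCNC were in 9 of the 15, against 44.41% of all; the stricter core was chosen after seeing the data. The antioxidant response element core TGACNNNGC was in 1 window, of another Bcl2l1 start, against 10.16% of all. The ATF4-CEBP composite core TTGCNTCA, the cAMP response element TGACGTCA and the heat shock element were in none, against 3.12%, 1.55% and 0.47% of all windows. These are letter matches, and a window without a match says only that the letters are not in it.

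All 10 mRNAs were detected in every library, with levels that spanned a wide range. Since TPM is scaled for transcript length, levels can be compared between genes. Bak1, Mcl1 and Bax were among the 4 most abundant members in every library, and Bcl2 was the least abundant in all 9. In controls Mcl1 lay above Bax in all 3 libraries, with CuO NPs it lay below Bax in all 3, and with CuO NPs + TTM it lay below Bax in library 1 and above it in libraries 2 and 3.

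**Figure D1:**
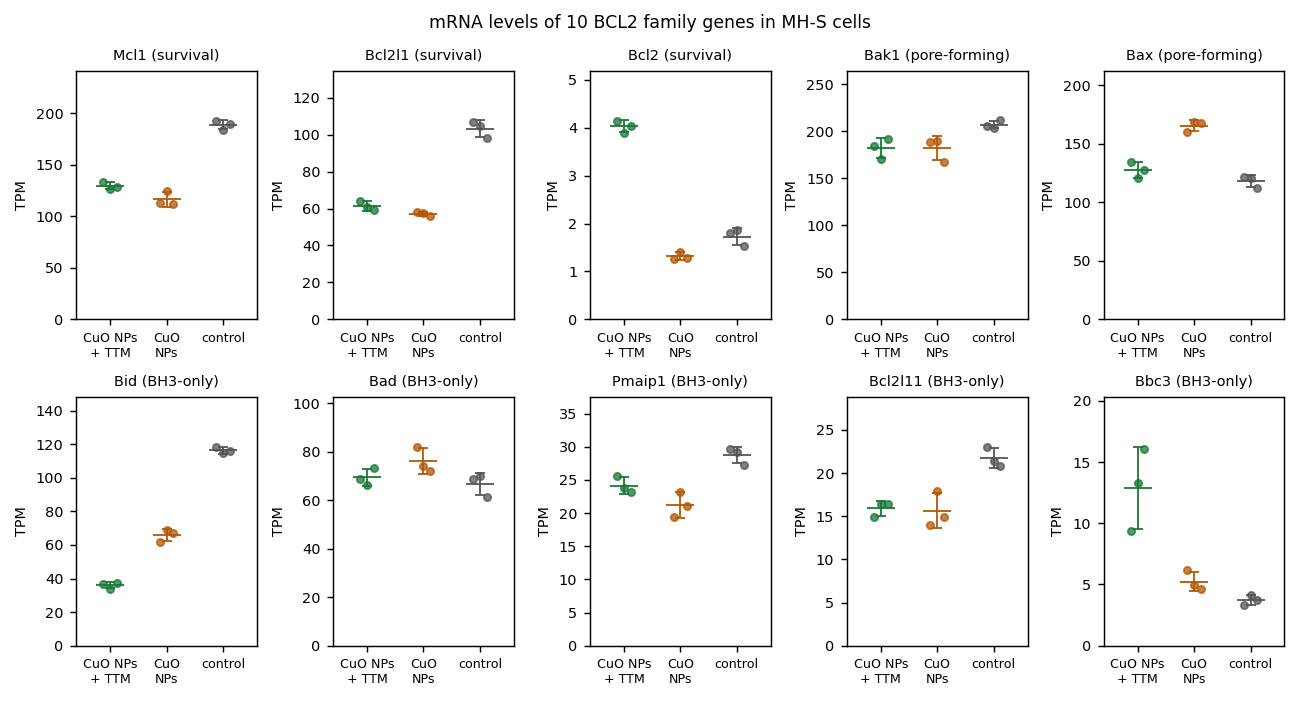
mRNA levels (TPM, vertical axes from 0) of the 10 genes in each library, with a panel for each gene; points are libraries, and the horizontal bar and whiskers are the mean ± SD (n = 3). Bid is lowest with CuO NPs + TTM (33.8 to 37.5 TPM) and highest in controls (114.8 to 118 TPM), while Bcl2 and Bbc3 are highest with CuO NPs + TTM.

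With CuO NPs against control, the abundant survival genes Mcl1 and Bcl2l1 fell, and Bcl2, the third survival gene, did not pass the test. Among the death genes Bax rose (under the 4 other scalings Bad did too, and Bbc3 with each library centred on its median gene), while Bid, Bcl2l11, Pmaip1 and Bak1 fell, and Bad and Bbc3 did not pass. Thus 7 of the 10 members were called, 1 higher and 6 lower, where 41.9% of all tested genes were called, 11.8% higher and 30.1% lower. Called means an adjusted p under 0.05 in limma, after Benjamini-Hochberg adjustment over the 12904 genes. For all 10 members the TPM ranges of CuO NPs and control were separate, as they were for 53% of all genes. The median log2 fold change was -0.69 for the survival genes, -0.19 for the death genes and -0.12 for all tested genes.

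With TTM added to CuO NPs, Bcl2 and Bbc3, a survival gene and a death gene, rose together, Bax and Bid fell, and Mcl1 rose by a small amount. In this comparison 5 of 10 members were called, 3 higher and 2 lower, where 53.1% of all genes were called, 34.6% higher and 18.5% lower. Groups did not overlap for 6 members, against 59.4% of all genes. The median log2 fold change was 0.15 for the survival genes, 0.001 for the death genes and 0.115 for all tested genes.

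Cells given both agents still differed from controls. Of 10 members, 8 were called for CuO NPs + TTM against control, with Bcl2 and Bbc3 higher and Mcl1, Bcl2l1, Bak1, Bid, Bcl2l11 and Pmaip1 lower, where 55.5% of all genes were called, 27.3% higher and 28.2% lower. Groups did not overlap for 8 members, against 63.1% of all genes. The median was -0.54 for the survival genes, -0.18 for the death genes and 0.002 for all genes. The comparisons share libraries, so a member's values in 1 of them are not independent of those in the others.

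**Figure D2:**
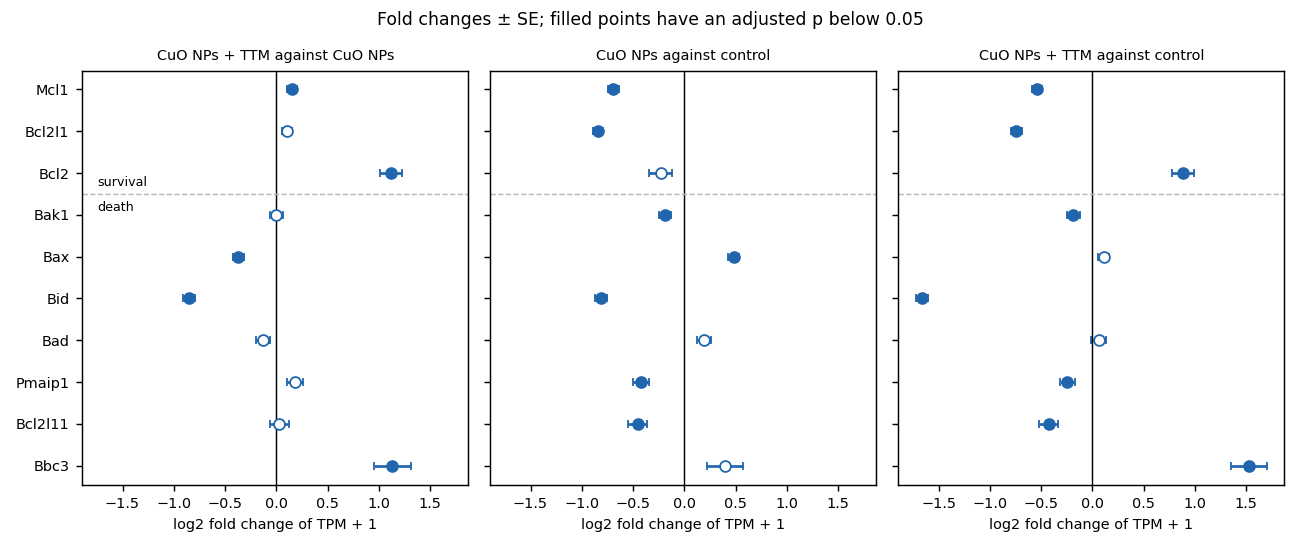
Log2 fold changes of TPM + 1 (horizontal axes) with their standard errors for the 10 genes in the 3 comparisons, survival genes above the dashed line and death genes below it. Filled points passed the limma test; with CuO NPs against control Bax is the filled point right of 0, and with TTM added to CuO NPs the points of Bcl2 and Bbc3 lie near 1.12 and 1.13.

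Scaling matters for the small changes. The median gene was at -0.12 with CuO NPs against control and at 0.115 with TTM added, and mRNAs encoded by mitochondrial DNA took 11.3% to 13.3% of TPM with CuO NPs + TTM, 15.5% to 15.9% with CuO NPs and 12.6% to 13.4% in controls. With these mRNAs left out and TPM rescaled, the counts of called members were again 5, 7 and 8 for CuO NPs + TTM against CuO NPs, CuO NPs against control and CuO NPs + TTM against control, but Bad was then called in place of Mcl1 in the first and of Bak1 in the second. Of 10 macrophage markers, 9 reached 1 TPM in some library and Mrc1 did not, and the list summed to 2112 to 2197 TPM with CuO NPs + TTM, 1769 to 1812 TPM with CuO NPs and 3457 to 3535 TPM in controls. With TTM added the mean fell for Csf1r (44.36 against 86.65 TPM), Cd14 (233 against 331 TPM) and Spi1 (97.6 against 131 TPM). The means of the other listed macrophage markers were higher, with Cd68 at 994 against 730 TPM and Marco at 405 against 195 TPM. The 5 epithelial markers summed to at most 0.03 TPM in either exposure and 0.15 TPM in controls, and the 5 fibroblast markers to at most 0.53, 1.22 and 0.22 TPM with CuO NPs + TTM, with CuO NPs and in controls. The 5 lymphocyte markers summed to at most 2.36, 0.53 and 0.75 TPM in the same order. Of 5 endothelial markers only Vwf reached 1 TPM, and the list summed to 11.6 to 14.3, 9.7 to 11.3 and 8.26 to 12 TPM. Of 5 granulocyte markers S100a8, S100a9 and Ly6g reached 1 TPM, and the list summed to 63.8 to 70.7, 199 to 220 and 383 to 400 TPM. The part of these markers in the results was not tested. In bulk RNA, fewer cells of a type and less RNA per cell cannot be told apart.

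Mcl1 (ENSMUSG00000038612) encodes the short-lived guardian that binds BIM, PUMA, NOXA and BAK. It had 133, 126 and 129 TPM with CuO NPs + TTM, 113, 125 and 112 TPM with CuO NPs, and 193, 184 and 190 TPM in controls. Both exposed groups lay below every control library, and the libraries with TTM lay just above those without it. Mcl1 fell with CuO NPs against control, with a log2 value of -0.69 (SE 0.051, limma adjusted p = 6.7e-06), or -0.57 relative to the median gene. With TTM added to CuO NPs, 130 ± 3.50 TPM compared with 117 ± 7.06 TPM (SD, n = 3 each), or 0.15 in log2 (SE 0.051, limma adjusted p = 0.0283). That call held under 10 of 20 alternatives: relative to the median gene the value was 0.04, and with each library centred on its median gene it was -0.04, below 0. Leaving out CuO NPs replicate 1 (0.13), CuO NPs replicate 3 (0.12), CuO NPs + TTM replicate 1 (0.13) or CuO NPs + TTM replicate 3 (0.16) also ended it, with adjusted p between 0.00589 and 0.618 over all alternatives. With CuO NPs + TTM against control Mcl1 fell by 0.54 (limma adjusted p = 1.97e-05).

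Bcl2l1 (ENSMUSG00000007659) encodes BCL-XL, the long-lived survival protein, and its mRNA can be spliced to a death-promoting short form that gene-level values do not separate. Its levels were 64.2, 60.6 and 59.2 TPM with CuO NPs + TTM, 57.9, 57.4 and 56.0 TPM with CuO NPs, and 107, 105 and 98.3 TPM in controls. The exposed libraries were all far below the controls and close to each other. With CuO NPs against control its log2 fold change was -0.84 (SE 0.051) at a limma adjusted p of 1.99e-06, and its mean TPM fell by 44.7%. With CuO NPs + TTM against control it fell by 0.74 (SE 0.051, limma adjusted p = 2.95e-06). The addition of TTM gave 0.10 (limma adjusted p = 0.121), which did not pass and was below 0 under median-of-ratios scaling (-0.03) and with each library centred on its median gene (-0.09).

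Bcl2 (ENSMUSG00000057329), the founding survival gene, was scarce in these cells. It measured 4.15, 3.9 and 4.04 TPM with CuO NPs + TTM, 1.26, 1.41 and 1.29 TPM with CuO NPs, and 1.8, 1.86 and 1.53 TPM in controls. The libraries with TTM stood clear above all 6 others, and the CuO NP libraries lay below the controls. With TTM added to CuO NPs it rose to 3.05 times the mean TPM, a log2 fold change of 1.12 on the scale of TPM + 1 (SE 0.108, limma adjusted p = 3.47e-05). A pseudocount of 0.1 in place of 1, which shrinks low genes less, gave 1.54. Against control the same cells had 0.88 (SE 0.108, limma adjusted p = 0.000103), and this and the previous call held under all 19 alternatives that kept the gene. CuO NPs against control gave -0.23 (limma adjusted p = 0.113), which did not pass; it passed only with no intensity trend (adjusted p = 0.0211, range 0.0211 to 0.697 over all alternatives). With every library at or below 4.15 TPM, Bcl2 was at most 2.1% of the TPM of the 3 survival genes.

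Bax (ENSMUSG00000003873) encodes a pore former that waits in the cytosol and is a known p53 target. Its values were 135, 121 and 128 TPM with CuO NPs + TTM, 160, 168 and 168 TPM with CuO NPs, and 122, 121 and 113 TPM in controls. The CuO NP libraries were above all others, and the TTM and control libraries overlapped. Bax rose with CuO NPs against control by 0.48 (SE 0.052, limma adjusted p = 8.27e-05), or 0.60 relative to the median gene. It fell when TTM was added to CuO NPs (log2 -0.37, SE 0.052, limma adjusted p = 0.000303), and both calls held under all 20 alternatives. For CuO NPs + TTM against control the value was 0.11 (limma adjusted p = 0.102), which passed only with quantile normalization (0.21, adjusted p = 0.00459, range 0.00459 to 0.3).

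Bak1 (ENSMUSG00000057789), the pore former that resides on the mitochondrial membrane, was the most abundant member in 8 of 9 libraries. It had 185, 170 and 192 TPM with CuO NPs + TTM, 189, 190 and 168 TPM with CuO NPs, and 206, 204 and 212 TPM in controls. The exposed libraries were below the controls and overlapped each other. It fell with CuO NPs against control, with a log2 value of -0.19 (SE 0.061, limma adjusted p = 0.0335), but this call held under only 9 of 20 alternatives, and relative to the median gene it was -0.06. Among those that ended it were median-of-ratios scaling (-0.05), centring on the median gene (-0.01), quantile normalization (-0.06), the mitochondrial mRNAs left out (-0.14) and the loss of control replicate 1 (-0.19), 2 (-0.20) or 3 (-0.17) or of CuO NPs replicate 3 (-0.13). With CuO NPs + TTM against control the value was also -0.19 (SE 0.061, limma adjusted p = 0.0265), held under 13 of 20 alternatives and lost with quantile normalization (-0.02) and without control replicate 1 (-0.19), control replicate 3 (-0.17) or CuO NPs + TTM replicate 2 (-0.14). The addition of TTM gave 0.001 (limma adjusted p = 0.988), and below 0 under 3 other scalings (-0.06 to -0.19). Among all alternatives this fall passed only with each library centred on its median gene (-0.19, limma adjusted p = 0.0346). An opposite-strand gene, Ggnbp1, shares 437 exon bases with Bak1 in the GENCODE M21 annotation and had 2.13 to 4.11 TPM.

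Bid (ENSMUSG00000004446) encodes the BH3-only protein that caspase 8 cuts to carry a death receptor signal to mitochondria. Its mRNA had 37, 33.8 and 37.5 TPM with CuO NPs + TTM, 61.8, 69 and 66.8 TPM with CuO NPs, and 118, 114.8 and 116 TPM in controls. The 3 groups were fully separate, with the libraries given both agents lowest and controls highest. Bid fell with CuO NPs against control, with a log2 value of -0.81 (SE 0.058, limma adjusted p = 5.84e-06). It fell again when TTM was added to CuO NPs (log2 -0.85, SE 0.058, limma adjusted p = 5.44e-06). Against control, the mean TPM of cells given both agents fell by 69.0%, or -1.66 in log2 (SE 0.058, limma adjusted p = 6.65e-08). All 3 calls held under all 20 alternatives. Bid shares 628 exon bases with Bcl2l13, an opposite-strand gene of the same family at 44.5 to 65.6 TPM, and the sources used here do not say if counting used strand, so part of either value is uncertain.

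Bbc3 (ENSMUSG00000002083) encodes PUMA, a BH3-only protein that binds all the survival proteins. It had 9.33, 13.3 and 16.03 TPM with CuO NPs + TTM, 6.14, 4.97 and 4.6 TPM with CuO NPs, and 3.35, 4.16 and 3.71 TPM in controls. The groups did not overlap, and the spread was widest with TTM, where library 1 was lowest. With TTM added to CuO NPs Bbc3 rose to 2.46 times the mean TPM, or 1.13 in log2 (SE 0.176, limma adjusted p = 0.000543). Cells given both agents had 3.44 times the mean TPM of controls, or 1.52 in log2 (SE 0.176, limma adjusted p = 7.15e-05), and both calls held under all 20 alternatives. CuO NPs against control gave 0.39 (SE 0.176, limma adjusted p = 0.103), which did not pass. It passed under 3 of 20 alternatives, namely centring on the median gene (0.57), a fit of these 2 groups only (0.39) and the loss of CuO NPs + TTM replicate 1 (0.39, adjusted p = 0.0358), within a range of 0.0358 to 0.279.

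Pmaip1 (ENSMUSG00000024521) encodes NOXA, which binds MCL1 and sends it to degradation. Its levels were 25.6, 23.8 and 23.1 TPM with CuO NPs + TTM, 19.4, 23.2 and 21.1 TPM with CuO NPs, and 29.7, 29.3 and 27.3 TPM in controls. Both exposed groups were below the controls, with 1 CuO NP library inside the range of those given TTM. It fell with CuO NPs against control, with a log2 value of -0.42 (SE 0.076, limma adjusted p = 0.0018). It also fell with CuO NPs + TTM against control (log2 -0.24, SE 0.076, limma adjusted p = 0.0214), a call lost without control replicate 1 (-0.22), control replicate 2 (-0.23), CuO NPs + TTM replicate 2 (-0.23) or CuO NPs + TTM replicate 3 (-0.21), with adjusted p between 0.00379 and 0.0685. TTM added to CuO NPs gave 0.18 (limma adjusted p = 0.0739), which did not pass; it passed without CuO NPs replicate 2 (0.24, adjusted p = 0.0238, range 0.0238 to 0.9) and was -0.01 with each library centred on its median gene.

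Bcl2l11 (ENSMUSG00000027381) encodes BIM, a BH3-only protein central to the death of blood cells. It had 14.9, 16.4 and 16.4 TPM with CuO NPs + TTM, 14.0, 17.9 and 15.0 TPM with CuO NPs, and 23.1, 21.3 and 20.8 TPM in controls. All 6 exposed libraries were below every control, and the exposed groups overlapped. It fell by 0.46 with CuO NPs against control (SE 0.092, limma adjusted p = 0.00337) and fell by 0.43 with CuO NPs + TTM against control (SE 0.092, limma adjusted p = 0.00325), and both calls held under all 20 alternatives. TTM added to CuO NPs gave 0.03 (limma adjusted p = 0.804), with a direction that turned under the other scalings (-0.03 to -0.16).

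Bad (ENSMUSG00000024959) encodes the BH3-only protein that growth factor kinases keep inactive by phosphorylation. It measured 68.8, 66.3 and 73.2 TPM with CuO NPs + TTM, 82.1, 74.1 and 72 TPM with CuO NPs, and 68.5, 69.9 and 61.3 TPM in controls. The CuO NP libraries lay above the controls and overlapped those given TTM. CuO NPs against control gave 0.19 (SE 0.07, limma adjusted p = 0.0555), which did not pass. It passed under 5 of 20 alternatives, among them median-of-ratios scaling (0.32, adjusted p = 0.0102), within a range of 0.00612 to 0.184. The addition of TTM gave -0.13 (limma adjusted p = 0.15), which passed under median-of-ratios scaling (-0.26, adjusted p = 0.0212), with centring on the median gene (-0.32, adjusted p = 0.00949) and without the mitochondrial mRNAs (-0.19, adjusted p = 0.0458), within a range of 0.00949 to 0.429. Against control, cells given both agents had 0.06 (limma adjusted p = 0.492). Gpr137, on the opposite strand at 30.9 to 40.6 TPM, shares 524 exon bases with Bad, so part of the Bad value is uncertain, as for Bid.

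Set against each other inside a library, the survival and death genes give a ratio that does not change when all values of a library are multiplied by 1 factor. The 3 survival genes summed to 195 ± 5.90 TPM with CuO NPs + TTM, 175 ± 7.55 TPM with CuO NPs and 294 ± 6.53 TPM in controls (SD, n = 3 each). The 7 death genes summed to 469 ± 21.3 TPM with CuO NPs + TTM, 532 ± 16.2 TPM with CuO NPs and 563 ± 8.84 TPM in controls. The survival genes thus held 29.81%, 30.04% and 28.34% of the TPM of these 10 members with CuO NPs + TTM, 24.48%, 25.09% and 24.7% with CuO NPs, and 34.55%, 34% and 34.35% in controls. Other survival genes of the family, such as Bcl2l2 and Bcl2a1b, are not in these sums. The 3 groups were separate, with controls highest and CuO NPs lowest. The log2 ratio of the sums was -1.26 ± 0.064 with CuO NPs + TTM, -1.60 ± 0.024 with CuO NPs and -0.94 ± 0.018 in controls.

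These sums are carried by the abundant genes. Without Mcl1 and Bak1, the largest on each side, the log2 ratio was -2.13 ± 0.074 with CuO NPs + TTM, -2.58 ± 0.037 with CuO NPs and -1.76 ± 0.014 in controls, in the same order. The death sum was lower with CuO NPs + TTM than with CuO NPs in all libraries (445 to 486 TPM against 515 to 548 TPM), and Bax and Bid were the death genes called lower. Pore formers summed to 291 to 320 TPM with CuO NPs + TTM, 336 to 358 TPM with CuO NPs and 324 to 328 TPM in controls. The BH3-only genes summed to 154 to 166 TPM with CuO NPs + TTM, 179 to 189 TPM with CuO NPs and 229 to 243 TPM in controls. The sums have no test, because the members were chosen with results known.

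**Figure D3:**
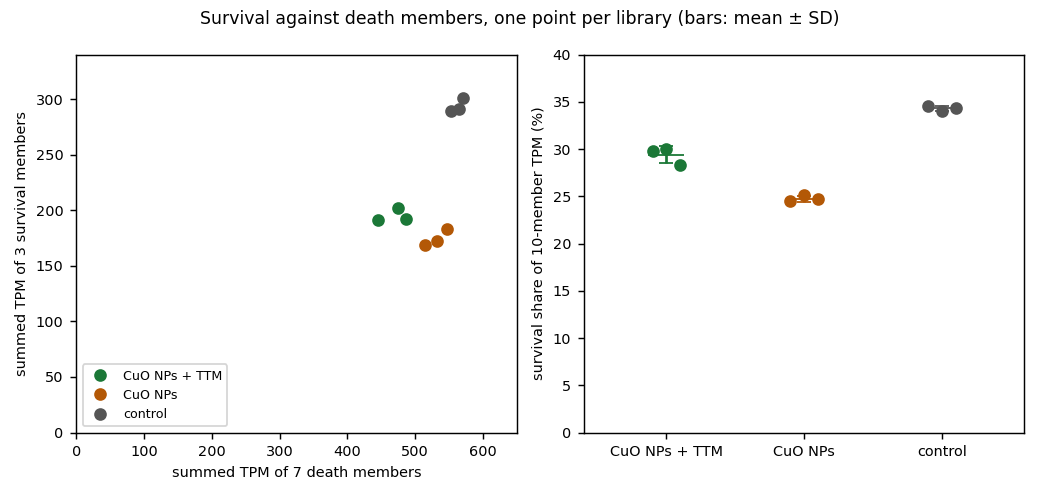
Left, summed TPM of the 3 survival genes (vertical axis) against that of the 7 death genes (horizontal axis), 1 point per library. Right, the survival genes' percentage of the TPM of these 10 members, with the mean ± SD (n = 3). The CuO NP libraries hold 24.48% to 25.09%, those with TTM as well 28.34% to 30.04%, and controls 34% to 34.55%.

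Pairs of proteins known to bind each other were compared in the same way. Mcl1 over Pmaip1 had a log2 TPM ratio of 2.42 ± 0.049 with CuO NPs + TTM, 2.46 ± 0.077 with CuO NPs and 2.71 ± 0.072 in controls (SD, n = 3 each), so both exposed groups lay below the controls and overlapped each other. Mcl1 over Bcl2l11 was 3.03 ± 0.114, 2.91 ± 0.107 and 3.12 ± 0.064 in the same order of groups. Of these last values only the CuO NP and control libraries did not overlap, and the gap was small. Bcl2l1 over Bad was -0.18 ± 0.111 with CuO NPs + TTM, -0.41 ± 0.080 with CuO NPs and 0.63 ± 0.050 in controls. Bcl2l1 mRNA therefore exceeded Bad mRNA in every control library and was below it in every exposed library. The level of Bad in this ratio is uncertain, since Bad shares exon bases with Gpr137 and use of strand is not stated. Bcl2l1 over Bak1 was -1.57 ± 0.110, -1.67 ± 0.078 and -1.005 ± 0.089, with the exposed groups overlapping below the controls. Bcl2 over Bax spread furthest, at -4.99 ± 0.031 with CuO NPs + TTM, -6.97 ± 0.065 with CuO NPs and -6.10 ± 0.092 in controls, and all 3 groups were separate.

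**Figure D4:**
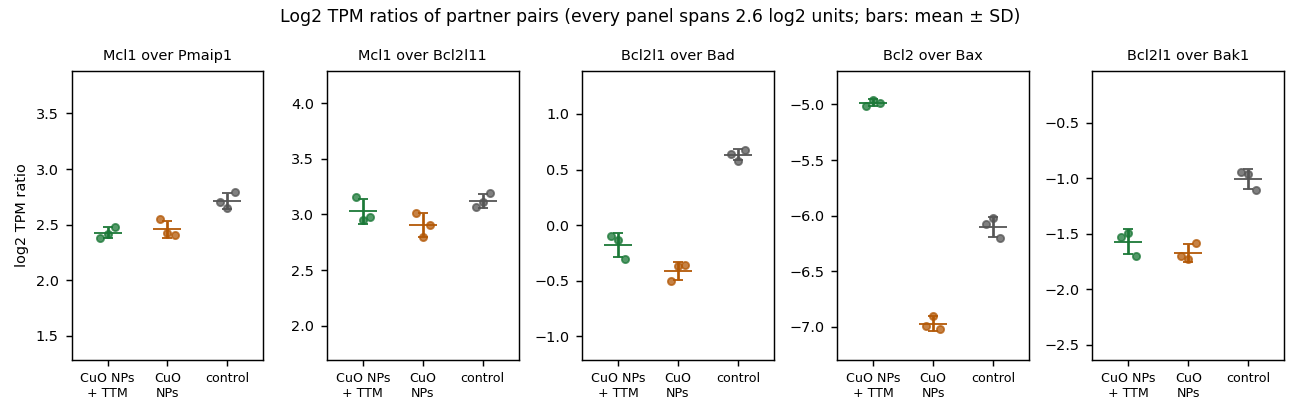
Log2 TPM ratios of 5 partner pairs in each library (vertical axes, every panel spanning the same number of log2 units), with mean ± SD (n = 3). Bcl2 over Bax is lowest with CuO NPs (-7.02 to -6.90) and highest with CuO NPs + TTM (-5.02 to -4.96), whereas Mcl1 over Pmaip1 overlaps between the exposed groups.

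Other members of the family were read from a list of 13 genes, of which 8 were tested. Of all tested genes, 34.6% were called higher and 18.5% lower with TTM added to CuO NPs. The shares were 11.8% and 30.1% with CuO NPs against control, and 27.3% and 28.2% with both agents against control. Bok was listed at 0 in every library, and Hrk, Bcl2l10, Bcl2l14 and Bcl2a1a stayed below 1 TPM. With TTM added to CuO NPs none rose and 1 fell, Bcl2a1b, a survival gene driven by NF-kB, to 11.04 ± 0.978 TPM against 16.1 ± 0.654 TPM (log2 fold change -0.51, limma adjusted p = 0.00173). Its near-identical copies Bcl2a1a and Bcl2a1d make that value uncertain. With each library centred on its median gene, and with quantile normalization, 0 rose and 4 fell in this comparison. With CuO NPs against control 2 rose and 2 fell, or 3 and 1 under the 4 other scalings, and Bmf, a BH3-only gene whose protein is held by the dynein light chain, fell to 5.90 ± 0.401 TPM against 14.6 ± 2.55 TPM (-1.17, limma adjusted p = 6.4e-05). Bcl2l2, which encodes the survival protein BCL-W, fell by 0.33 (limma adjusted p = 0.0279, held under 10 of 20 alternatives), and Bik, a BH3-only gene, rose by 0.52 (limma adjusted p = 0.0481, held under 8 of 19). For CuO NPs + TTM against control 2 rose and 2 fell, Bmf with -1.25 (limma adjusted p = 2.5e-05), Bcl2a1b with -0.73 and Bcl2l13, a mitochondrial member linked to mitophagy, with 0.30 (limma adjusted p = 0.0375, held under 12 of 20).

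Proteins that move or destroy family members had 1 large change. Dynll1, the dynein light chain that tethers BIM in the cytosol, had 27.1 ± 3.21 TPM with CuO NPs + TTM, 65.8 ± 3.55 TPM with CuO NPs and 154 ± 9.37 TPM in controls. It fell with TTM added to CuO NPs (-1.26, limma adjusted p = 5.28e-06), with CuO NPs against control (-1.21, limma adjusted p = 5.09e-06) and with CuO NPs + TTM against control (-2.47, limma adjusted p = 6.46e-08), under all alternatives run. Of the 9 tested genes on this turnover list, 1 rose and 2 fell with TTM added to CuO NPs, 0 rose and 3 fell with CuO NPs against control, and 1 rose and 4 fell with both agents against control. The shares of all tested genes called higher and lower were 34.6% and 18.5%, 11.8% and 30.1%, and 27.3% and 28.2% in the same order. With TTM added, the rise, of Btrc (0.28, limma adjusted p = 0.0215), was lost under all 4 other scalings, which gave 0 higher and 2 to 4 lower. With median-of-ratios scaling 1 rose and 1 fell with CuO NPs against control, and with quantile normalization 1 rose and 1 fell with both agents against control. The 14-3-3 genes Ywhae (-0.27) and Ywhaq (-0.23), whose proteins hold phosphorylated BAD, fell with CuO NPs against control, and both lost the call under 3 of 4 other scalings.

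Downstream of the mitochondria, counts depended on the scaling. For comparison, 34.6% of all tested genes were called higher and 18.5% lower with TTM added to CuO NPs. The shares were 11.8% and 30.1% with CuO NPs against control, and 27.3% and 28.2% with both agents against control. Of 12 genes of the apoptosome and caspases, all tested, 4 rose and 1 fell with TTM added to CuO NPs, 1 rose and 3 fell with CuO NPs against control, and 2 rose and 1 fell with both agents against control. Median-of-ratios scaling gave 3 higher and 3 lower in the first of these comparisons and 4 higher and 1 lower in the second. Casp9, the initiator caspase of the mitochondrial route, had 17.2 ± 2.55 TPM with CuO NPs + TTM, 11.1 ± 1.35 TPM with CuO NPs and 12.3 ± 0.435 TPM in controls, and rose with TTM added to CuO NPs (0.58, limma adjusted p = 0.00199). Of the 7 tested caspase inhibitors and their antagonists, 2 rose and 1 fell with TTM added to CuO NPs, 0 rose and 4 fell with CuO NPs against control, and 1 rose and 3 fell with both agents against control. With each library centred on its median gene these were 2 and 3, then 2 and 1, in the first 2 comparisons. Birc3, which encodes the inhibitor cIAP2, had 39.4 ± 1.99 TPM with CuO NPs + TTM, 22.8 ± 1.38 TPM with CuO NPs and 54.8 ± 1.10 TPM in controls, and was called in every comparison, higher with TTM added (0.76, limma adjusted p = 1.24e-05) and lower with CuO NPs against control (-1.23, limma adjusted p = 7.1e-07). Diablo, whose protein leaves mitochondria to block those inhibitors, fell with TTM added to CuO NPs (-0.45, limma adjusted p = 0.000512).

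Genes of death receptor signalling, which can reach the BCL2 family through Bid, were mostly lower with TTM. The list also holds genes of necroptosis, such as Mlkl, so its counts do not describe the route to Bid alone. Of 9 tested, 1 rose and 7 fell with TTM added to CuO NPs, with a median of -0.35 against 0.115 for all genes. The gene that rose was Cflar, at 33.9 ± 0.936 TPM with CuO NPs + TTM against 23.9 ± 1.21 TPM with CuO NPs. Tnf fell to 15.3 ± 1.96 TPM against 41.0 ± 1.97 TPM (-1.38, limma adjusted p = 3.55e-06), and Mlkl, the effector of necroptosis, to 33.7 ± 1.58 TPM against 50.9 ± 0.783 TPM (-0.58, limma adjusted p = 1.7e-05). With CuO NPs against control 1 rose and 4 fell, or 2 and 2 with median-of-ratios scaling, and Fas, the death receptor, fell to 18.0 ± 0.218 TPM against 41.4 ± 3.58 TPM (-1.15, limma adjusted p = 7.13e-06). With both agents against control 1 rose and 6 fell, Fas with -1.63 and Tnf with -1.66. Of all tested genes, 34.6% were called higher and 18.5% lower with TTM added to CuO NPs. The shares were 11.8% and 30.1% with CuO NPs against control, and 27.3% and 28.2% with both agents against control. Ripk3, the kinase upstream of MLKL, did not exceed 0.07 TPM in any library.

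At the mitochondrial membrane, 6 of 10 channel and membrane genes rose and 3 fell with TTM added to CuO NPs, and 0 rose and 5 fell with CuO NPs against control. The balance depends on the scaling: with median-of-ratios scaling 3 rose and 3 fell, and 2 rose and 3 fell. Of all tested genes, 34.6% were called higher and 18.5% lower with TTM added to CuO NPs. The shares were 11.8% and 30.1% with CuO NPs against control. Vdac2, the outer membrane channel that binds BAK, had 345 ± 8.17 TPM with CuO NPs + TTM, 289 ± 7.91 TPM with CuO NPs and 436 ± 7.11 TPM in controls. It fell with CuO NPs against control (-0.59, limma adjusted p = 3.09e-06), and its rise with TTM added (0.25, limma adjusted p = 0.00044) was lost with centring on the median gene. Of 5 mitophagy and autophagy genes whose proteins resemble the BH3-only class or bind BCL2, 3 rose and 0 fell with TTM added to CuO NPs and 1 rose and 2 fell with CuO NPs against control, or 2 and 1 with median-of-ratios scaling. With TTM added, 2 rose and 0 fell under each of the 4 other scalings. The rise of Bnip3l in that comparison (0.44, limma adjusted p = 0.0325) held under 10 of 20 alternatives. Bnip3, a mitophagy receptor, rose with TTM added (0.53, limma adjusted p = 0.00049) and fell with CuO NPs against control (-0.38, limma adjusted p = 0.00466), the second call being lost with centring on the median gene.

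Transcription factors known to act on family promoters also differed. Of 13 tested, 7 rose and 2 fell with TTM added to CuO NPs, 5 rose and 4 fell with CuO NPs against control, and 7 rose and 2 fell with both agents against control. The first of these counts compares with 34.6% of all genes called higher and 18.5% lower, and was 4 higher and 3 lower with each library centred on its median gene. The shares were 11.8% and 30.1% with CuO NPs against control, and 27.3% and 28.2% with both agents against control. Ddit3 (ENSMUSG00000025408), which encodes CHOP, had 133, 169 and 186 TPM with CuO NPs + TTM, 82.3, 85.9 and 93.9 TPM with CuO NPs, and 32.3, 31.4 and 35.4 TPM in controls, and a second identifier of that symbol was listed at 0. The groups were separate, and Ddit3 rose in every comparison, by 0.88 with TTM added (limma adjusted p = 0.000154) and by 1.38 with CuO NPs against control (limma adjusted p = 1.14e-05). Atf4, the stress factor upstream of CHOP, had 673 ± 26.2 TPM with CuO NPs + TTM, 544 ± 11.7 TPM with CuO NPs and 372 ± 4.97 TPM in controls. Myc had 18.5 ± 1.68, 7.49 ± 0.461 and 14.7 ± 0.459 TPM in the same order, higher with TTM added (1.20, limma adjusted p = 5.63e-06) and lower with CuO NPs against control (-0.89, limma adjusted p = 3.04e-05). E2f1, a cell cycle factor, rose with CuO NPs against control (0.80, limma adjusted p = 2.14e-05), and Sp1 rose with TTM added (0.59, limma adjusted p = 0.000349).

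**Figure D5:**
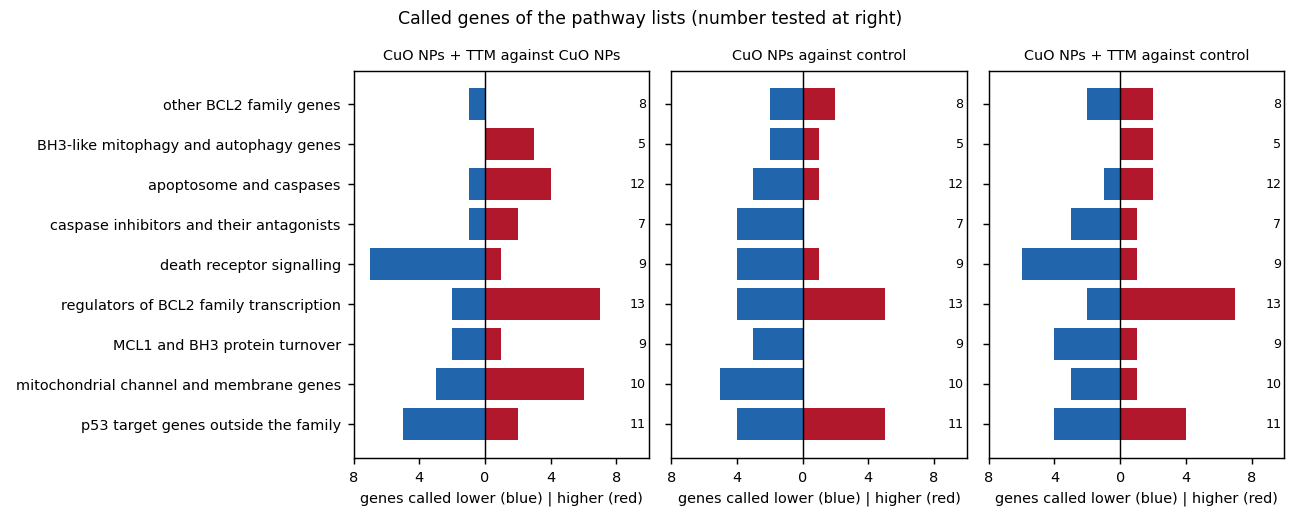
Number of called genes on 9 pathway lists, lower (left of 0) and higher (right of 0), in the 3 comparisons; the number at the right of each row is how many were tested. Death receptor signalling has 7 lower and 1 higher of 9 with TTM added to CuO NPs, and regulators of transcription have 7 higher and 2 lower of 13. Of all tested genes, 18.5% were called lower and 34.6% higher in that comparison.

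Genes with the most similar pattern over the 9 libraries were found for the called survival and death member of largest change with CuO NPs against control (Bcl2l1 and Bid) and with TTM added to CuO NPs (Bcl2 and Bbc3), as the smallest root-mean-square difference in log2(TPM + 1) centred on each gene's mean. Identifiers without a symbol and predicted-gene or clone names were left out, so nearer ones may exist. For Bcl2l1 the nearest named genes were Elavl4, Tpcn1 and Nrros, with differences of 0.04, 0.06 and 0.06. Tpcn1 had 30.2, 28.9 and 54.8 TPM with CuO NPs + TTM, with CuO NPs and in controls. Elavl4, at 0.217, 0.08 and 1.04 TPM in that order, passed the filter only through controls, and its likeness to Bcl2l1 rests on the pseudocount of 1, which compresses such low values. For Bid they were Sfpq, Nr1h3 and Nfkbia (0.09, 0.09 and 0.10), and Nfkbia had 57.4, 101 and 176 TPM in the same order. Those nearest to Bcl2 were Ankzf1, Zer1 and Prkra (0.05, 0.07 and 0.07), where Ankzf1 had 20.4, 9.12 and 11.3 TPM. Those nearest to Bbc3 were Mllt3, Insig1 and Phospho1 (0.16, 0.16 and 0.17), where Insig1 had 180.1, 85.9 and 67.4 TPM.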

How the data were processed

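Polyadenylated RNA was sequenced from 9 libraries. The authors deposited TPM per gene, 1 column per library. The tools fastp, HISAT2, RSEM and DESeq2 and the build GRCm39 are named per the submitters' processing notes, without versions or roles. TPM keeps no read numbers, so the depth is unknown and no counting interval is given. Between 19710 and 20863 genes per library were above 0. Symbols came from a GENCODE table by Ensembl identifier, 52073 of 56980 matched. The log2(TPM + 1) values of the 9 libraries were fitted together by group (limma 3.58.1, R 4.3.3, eBayes with trend, two-sided, Benjamini-Hochberg within each comparison, checked on simulated data), over 12904 genes with at least 1 TPM in at least 3 libraries. Fold changes on the scale of log2(TPM + 1) understate those of low genes. Tables used Python 3.11.15, pandas 2.3.3 and matplotlib 3.10.9. Alternatives were pseudocounts of 0.1 and 0.5, no filter or 5 TPM, 4 scalings, no trend, 2-group fits, the replicate number as a block and each library left out. Members and lists were chosen with earlier results of these data known. All members are named; of each other list, up to 3 called genes of largest change per comparison, or the most abundant where none was called, and Ddit3, Atf4 and Trp53. Others are named where a count was 5 or fewer, chosen after their values were seen. Protein sequences, and a promoter for Pmaip1, are not used here. A gene that this rule names is not reported here.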

Additional observations from a re-analysis of the deposited data

How the results depend on the processing

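Of the 20 member results called over the 3 comparisons, 16 were called under every alternative in which the gene was tested; the others were Bak1 with CuO NPs against control and with CuO NPs + TTM against control, Mcl1 with TTM added to CuO NPs, and Pmaip1 with CuO NPs + TTM against control. Directions turned only with TTM added to CuO NPs. With median-of-ratios scaling Bcl2l1 had -0.026, Bak1 -0.127 and Bcl2l11 -0.091; with each library centred on its median gene Bcl2l1 had -0.087, Mcl1 -0.035, Bak1 -0.187, Bcl2l11 -0.158 and Pmaip1 -0.009; with quantile normalization Bcl2l11 had -0.146; and with mitochondrial mRNAs left out Bak1 had -0.057 and Bcl2l11 -0.025. Leaving out single libraries gave -0.056 to 0.050 for Bak1 and -0.039 to 0.126 for Bcl2l11. The cause of these turns was not tested. Without Mcl1 and Bak1 the survival to death log2 ratio differed by 0.45 with TTM added to CuO NPs and by -0.82 with CuO NPs against control, where all members gave 0.34 and -0.67; the cause was not tested. The called genes were 4469 higher and 2384 lower with TTM added, and 1518 higher and 3890 lower with CuO NPs against control; under median-of-ratios scaling they were 3422 and 3509, and 2534 and 2628. Same-numbered libraries did not deviate together (9 correlations from -0.127 to 0.01), so the numbers were not taken as pairs; with the replicate number as a block, 4, 6 and 7 members were called, against 5, 7 and 8 without it, for CuO NPs + TTM against CuO NPs, CuO NPs against control and CuO NPs + TTM against control, and all genes called were 6469, 4925 and 6798, against 6853, 5408 and 7164. Leaving out single libraries from the partner ratios, an alternative added after seeing the data, turned 1 of them, Mcl1 over Pmaip1 with TTM added to CuO NPs (-0.06 to 0.011). Depth is unknown, so differences of genes at few TPM, such as Bcl2, carry a counting error that cannot be given.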

Other observations

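Bbc3 and Bax are both known p53 targets, and their highest values lay in different groups: Bbc3 was highest with CuO NPs + TTM and Bax with CuO NPs. Trp53, which encodes p53, had 91.3 ± 3.57 TPM with CuO NPs + TTM, 129 ± 8.82 TPM with CuO NPs and 81.7 ± 1.44 TPM in controls (SD, n = 3 each). It rose with CuO NPs against control (log2 fold change 0.66, limma adjusted p = 1.77e-05) and fell with TTM added to CuO NPs (-0.50, limma adjusted p = 7.95e-05). Mdm2, the p53 target that limits p53, had 40.3 ± 3.15, 82.9 ± 8.91 and 40.6 ± 4.49 TPM in the same order of groups, and fell with TTM added (-1.02, limma adjusted p = 3.97e-05). Ddit3 and Atf4 were highest with CuO NPs + TTM. What set the levels of Bax and Bbc3 was not tested.

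Other p53 targets were called in both directions. Of all tested genes, 34.6% were called higher and 18.5% lower with TTM added to CuO NPs. The shares were 11.8% and 30.1% with CuO NPs against control, and 27.3% and 28.2% with both agents against control. Of the 11 p53 targets tested, 2 rose and 5 fell with TTM added to CuO NPs, 5 rose and 4 fell with CuO NPs against control, and 4 rose and 4 fell with both agents against control. The first of these counts depends on the scaling: median-of-ratios scaling gave 1 higher and 7 lower, against 1 and 9 with each library centred on its median gene, 2 and 8 with quantile normalization, and 2 and 6 without mitochondrial mRNAs. Gadd45a, a growth arrest gene that ATF4 also raises, had 62.6 ± 5.27 TPM with CuO NPs + TTM, 46.3 ± 4.40 TPM with CuO NPs and 11.8 ± 1.42 TPM in controls. Sesn2, a stress-induced inhibitor of mTORC1, had 21.5 ± 0.556, 31.0 ± 2.22 and 8.60 ± 0.313 TPM in that order. Aen, a nuclease linked to apoptosis, had 19.8 ± 0.650, 33.3 ± 1.72 and 43.1 ± 1.75 TPM, lower in each exposure than in controls. Zmat3 had 3.27 ± 0.140, 1.67 ± 0.078 and 2.09 ± 0.221 TPM, and rose with TTM added (0.68, limma adjusted p = 0.00063).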
